A study of Mus musculus with 15 samples.

Results

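ATP-binding cassette (ABC) genes encode proteins that share an ATP-binding domain, and most of them pump a substrate across a membrane. Members were all genes whose symbol on the array annotation was Abc, a letter from a to g and a digit, which gave 45 of the 18193 named genes, carried by 92 of 45101 probe sets. Subfamily A had 14 genes, B had 8, C had 10, D had 3, E had 1, F had 3 and G had 6. Liver RNA of 15 male C57BL/6J mice was measured, with 1 Affymetrix array per mouse and 3 mice per group. Feeding began at an age of 7 weeks and lasted 9 weeks in every group. The ND group was fed a normal diet with 10 kcal% fat, and the HF group a high-fat diet with 60 kcal% fat. The HFCC, HFDC and HFGC groups ate the same high-fat diet with 2% freeze-dried coffee, which was caffeinated, decaffeinated or green and unroasted with its caffeine, respectively. Values are log2 intensities, differences are log2 differences, and errors of group means are SD over 3 mice. Calls are limma's, at an adjusted p under 0.05 over all genes.

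A hepatocyte faces blood on its basolateral side and bile on its canalicular side. Canalicular ABC pumps export bile salts (Abcb11), phosphatidylcholine (Abcb4), conjugated bilirubin and drugs (Abcc2), sterols (Abcg5 with Abcg8) and many drugs (Abcb1a, Abcg2), while basolateral pumps such as Abcc3 and Abcc4 return conjugates and bile acids to the blood. Abca1 loads cholesterol and phospholipid onto apolipoprotein A-I, subfamily D carries fatty acids as CoA esters into peroxisomes or cobalamin out of lysosomes, and the proteins of subfamilies E and F have no membrane part and act in translation.

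Arrays of the same group correlated at r = 0.993 to 0.997 over genes. The summed level of 5 hepatocyte markers (Alb, Ttr, Apoa1, Cyp2e1 and Serpina1c) lay between 16.80 and 16.85 on all arrays, and none of the 5 was called in any comparison. Their ND means ran from 14.3 to 14.7, and Apoa1 read 14.43 on all 3 HFGC arrays. Whether levels this high can show a change in hepatocyte content was not tested. A measure of RNA quality, the 3' minus 5' log2 difference of the control probe sets, was 1.08 to 1.40 in the HF group and 0.70 to 1.07 on the other 12 arrays, with HF replicate 2 the highest. Its part in the differences from the HF group below was examined with 1 covariate fit only, given with those results. The HF range does not overlap with that of the other arrays, so this fit cannot separate the value from the HF group.

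In HF livers, 9 of 45 ABC genes were called against ND livers, beside 13.5% of all genes. Of the 9, 7 were higher, beside 8.92% of all genes called higher, and 2 were lower, beside 4.63% called lower. The genes that rose were the export pumps Abcc3, Abcc2, Abcb11, Abcb1a and Abcc6, the peroxisomal transporter Abcd2 and the porphyrin-related transporter Abcb6, and those that fell were Abca1 and Abca6. The median difference over the 45 genes was 0.06, and over all genes it was -0.0015. In 16 of the 45 genes the 3 HF arrays did not overlap with the 3 ND arrays, which held for 26.5% of all genes. In bulk liver RNA, fewer cells of a type and less RNA per cell cannot be told apart.

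**Figure D1:**
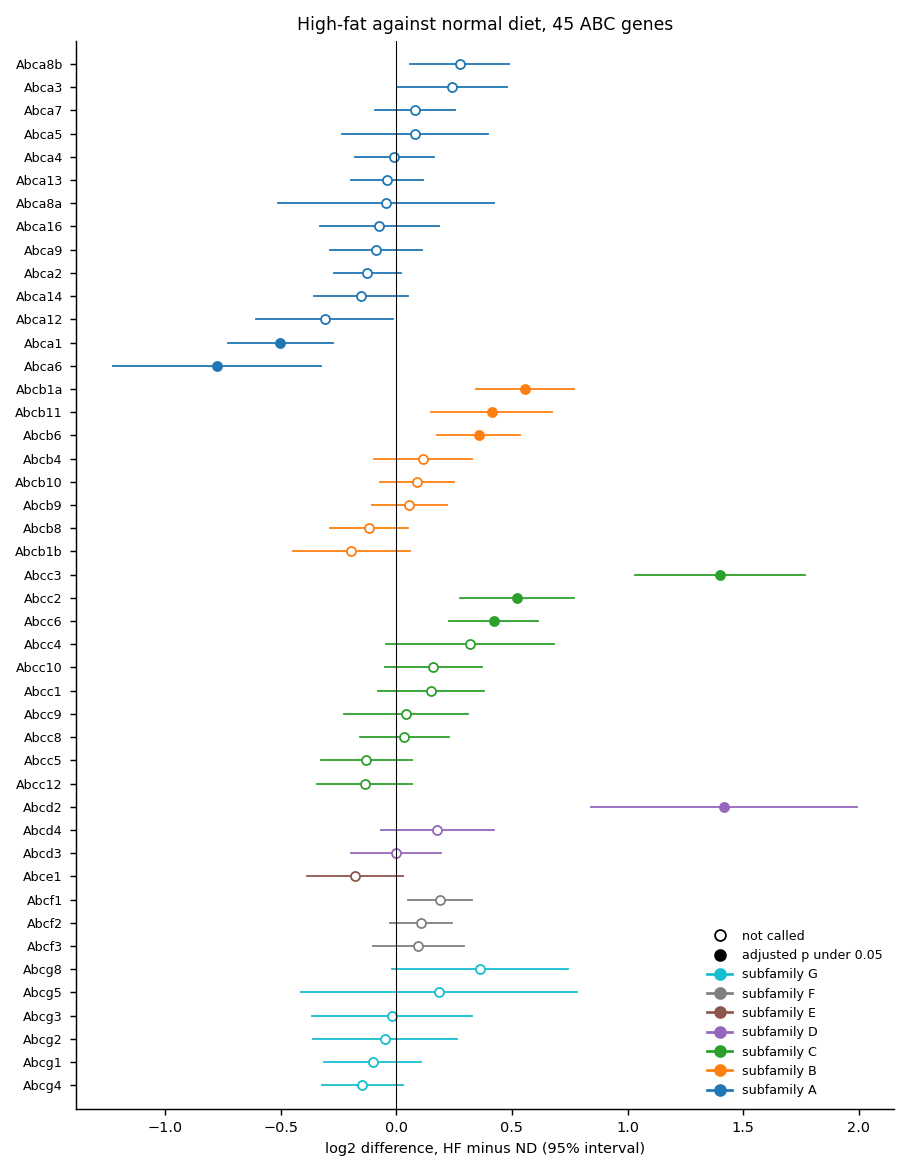
Log2 difference between HF and ND livers for each of 45 ABC genes, ordered by subfamily, with the 95% interval from limma (3 mice per group). Filled points passed an adjusted p of 0.05. Abcd2 and Abcc3 lie farthest to the right, at 1.42 and 1.40, and Abca6 and Abca1 farthest to the left, at -0.77 and -0.50.

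In subfamily C, 3 of 10 genes rose and none fell, beside 8.92% of all genes called higher and 4.63% called lower. Abcc3, the basolateral pump for bile acid and glucuronide conjugates, read 9.47, 9.88 and 8.95 in the ND mice and 10.70, 11.02 and 10.78 in the HF mice. The lowest HF mouse stood above the highest ND mouse by more than the HF range but less than the ND range. Abcc3 was 2.64-fold higher in HF livers, a log2 difference of 1.40 (95% interval 1.03 to 1.77, adjusted p = 0.00055). Abcc2, the canalicular pump for conjugated bilirubin, read 9.78, 10.28 and 9.97 in ND and 10.48, 10.55 and 10.57 in HF, a rise of 0.52 (adjusted p = 0.010). The ND mice varied more than the HF mice in both genes. Abcc6, whose loss leads to ectopic calcification and which is made mainly in liver, read 8.90, 9.07 and 8.98 in ND and 9.20, 9.53 and 9.48 in HF, a rise of 0.42 (adjusted p = 0.0089). The groups did not overlap in any of these 3 genes.

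The other 7 genes of subfamily C were not called in this comparison. Abcc4, a basolateral pump for bile acids and cyclic nucleotides, differed by 0.32 with an interval from -0.04 to 0.68, so a rise like that of Abcc2 lies within it. Abcc1 differed by 0.15 and Abcc5 by -0.13, both drug and conjugate pumps found in many tissues, and Abcc10, Abcc12, Abcc8 and Abcc9 lay between -0.14 and 0.16. Abcc8 and Abcc9 encode the sulfonylurea receptors, which regulate potassium channels and transport nothing themselves.

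In subfamily B, 3 of 8 genes rose and none fell, beside the same 8.92% and 4.63% of all genes. Abcb11, the bile salt export pump, read 10.52, 10.59 and 11.01 in the ND mice and 11.05, 11.11 and 11.20 in the HF mice. The highest ND mouse lay just below the lowest HF mouse. The rise of 0.41 (interval 0.15 to 0.67) had the highest adjusted p of the 9 calls, 0.038. Abcb1a, one of a pair of mouse genes for the drug pump P-glycoprotein, read 4.82, 4.89 and 5.01 in ND and 5.33, 5.59 and 5.47 in HF, a rise of 0.56 (adjusted p = 0.0039). Its partner gene Abcb1b was not called, at -0.19 (interval -0.45 to 0.06). Over all arrays Abcb1a averaged 5.13 and Abcb1b 3.87, both below the median level of all genes, 6.41. The pair are similar in sequence, and binding of one gene's RNA by the other's probes was not tested. Abcb6, linked to porphyrin transport, read 9.74, 9.66 and 9.62 in ND and 9.81, 10.17 and 10.10 in HF, a rise of 0.36 (adjusted p = 0.014) in which HF replicate 1 lay close to the ND mice. Abcb4, the canalicular floppase that supplies phosphatidylcholine to bile, was at 11.66 ± 0.16 in ND and 11.77 ± 0.07 in HF, a difference of 0.12 that was not called (interval -0.10 to 0.33). The mitochondrial transporters Abcb8 (-0.12) and Abcb10 (0.09) and the lysosomal peptide transporter Abcb9 (0.06) were not called either.

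In subfamily D, Abcd2 had the largest difference of all 45 genes. This peroxisomal transporter of very long-chain and polyunsaturated fatty acyl-CoA read 6.21, 6.73 and 5.81 in the ND mice and 7.56, 7.97 and 7.47 in the HF mice, with no overlap. It was 2.67-fold higher, a log2 difference of 1.42 (interval 0.84 to 1.99, adjusted p = 0.0056). Abcd3, the major peroxisomal membrane protein PMP70, was at 13.03 in both groups, with a difference of -0.00039 (interval -0.20 to 0.20). Abcd4, which works with lysosomal cobalamin export, differed by 0.18 and was not called.

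Subfamily A was the only one of the 5 membrane subfamilies with genes that fell, 2 of 14, and none of it rose. Of all genes, 4.63% were called lower and 8.92% higher. Abca1 read 11.59, 11.70 and 11.68 in the ND mice and 11.34, 10.93 and 11.20 in the HF mice. All HF mice lay below all ND mice, and HF replicate 2, the array with the highest 3' minus 5' value, was the lowest. Abca1 fell by 0.50 (interval -0.73 to -0.27, adjusted p = 0.0090), which is 1.42-fold lower. Abca6, of a cluster of A6-like genes on chromosome 11 whose substrates are not well known, read 8.27, 7.43 and 7.97 in ND and 7.34, 6.82 and 7.18 in HF and fell by 0.77 (interval -1.23 to -0.32, adjusted p = 0.026). None of its 4 neighbours in the cluster was called, with differences of 0.08 for Abca5, -0.04 for Abca8a, 0.28 for Abca8b and -0.09 for Abca9. Abca3, a lipid transporter known from the lamellar bodies of lung, was at 8.18 ± 0.10 in ND and 8.42 ± 0.15 in HF, which was not called.

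In subfamily G no gene was called in any of the 9 comparisons. Abcg5 and Abcg8, the partners of the sterol pump, read 9.23, 10.02 and 8.90 against 9.37, 9.60 and 9.72, and 8.14, 8.80 and 8.26 against 8.45, 9.04 and 8.79, in ND against HF mice. ND replicate 2 was the highest ND mouse in both genes, and the groups overlapped. The intervals of the difference, -0.41 to 0.78 for Abcg5 and -0.02 to 0.74 for Abcg8, leave room for a rise as large as that of Abcc2. Abcg2, an efflux pump for drugs and urate, differed by -0.05 (interval -0.36 to 0.26). Abcg1, which moves sterols in macrophages and other cells, differed by -0.10. In subfamilies E and F, the ribosome recycling factor Abce1 differed by -0.18 and the translation factors Abcf1, Abcf2 and Abcf3 by 0.19, 0.11 and 0.10, and none was called.

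**Figure D2:**
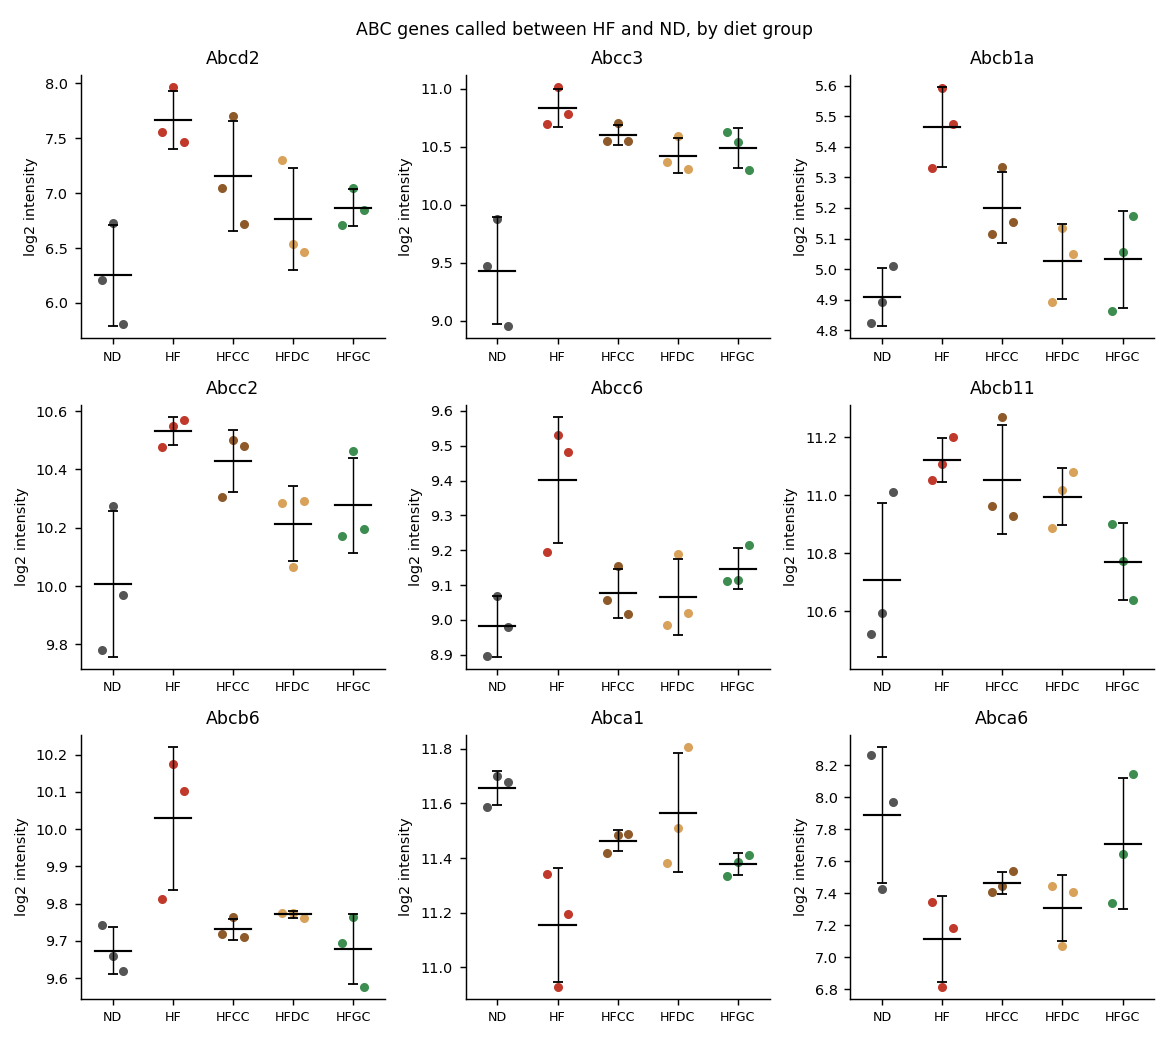
Log2 intensity of the 9 ABC genes called between HF and ND livers, in each of 15 mice, with group mean (line) and SD (bar). Axes differ between panels and do not start at 0. In all 9 panels the 3 HF points lie apart from the 3 ND points.

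By role, beside 8.92% of all genes called higher and 4.63% called lower, 3 of 8 canalicular genes, 2 of 6 genes for efflux across other membranes, 1 of 3 measured peroxisomal and lysosomal genes and 1 of 3 measured mitochondrial genes rose. Of 6 genes of sterol and phospholipid efflux 1 fell, as did 1 of 5 A6-like genes, and 0 of the 4 soluble genes was called, with 1 at an unadjusted p under 0.05. Of 5 markers of stellate cells, 2 (Reln and Col3a1) rose, and the summed level of the 5 was 10.23 to 10.63 in ND and 10.79 to 11.05 in HF mice. That sum is of linear intensities, and Reln and Col3a1 are the brightest of the list. The others were not called, with ND and HF means of 7.18 and 7.44 for Lrat, 6.70 and 6.71 for Des and 5.48 and 5.44 for Col1a1. Of 5 endothelial markers, Stab2 rose (0.49) and was the only 1 called, with 3 at an unadjusted p under 0.05 in limma. Lyve1 went the other way by more (-0.58), with means of 8.33 in ND and 7.75 in HF livers, and was not called. The sum over the endothelial list was 10.76 to 11.30 in ND and 11.06 to 11.19 in HF mice. None of 6 Kupffer cell, 4 measured cholangiocyte and 5 lymphocyte markers was called, with 1, 2 and 0 at an unadjusted p under 0.05 in limma. The part of other cells in the ABC differences was not tested.

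Promoter windows of called genes are shown because these members were called together within 1 comparison. Windows of 300 bases, 250 before and 50 after an annotated start in GRCm38.p6 (RefSeq), were held for 35 of the 45 genes and included 5 of the 9 called, of which 4 are printed, 3 that rose and 1 that fell. In lower case 5′ to 3′, capitals mark matches on either strand to the nuclear receptor hexamer AGGTCA, the antioxidant response core TGACNNNGC, the E-box CACGTG, the inverted CCAAT box ATTGG, the GC box GGGCGG and the TATA box TATAAA. The windows lie at chr2:69342567-69342866 on the minus strand (Abcb11), chr19:43782058-43782357 on the plus strand (Abcc2), chr5:8566841-8567140 on the plus strand (Abcb1a) and chr4:53159846-53160145 on the minus strand (Abca1).
Abcb11: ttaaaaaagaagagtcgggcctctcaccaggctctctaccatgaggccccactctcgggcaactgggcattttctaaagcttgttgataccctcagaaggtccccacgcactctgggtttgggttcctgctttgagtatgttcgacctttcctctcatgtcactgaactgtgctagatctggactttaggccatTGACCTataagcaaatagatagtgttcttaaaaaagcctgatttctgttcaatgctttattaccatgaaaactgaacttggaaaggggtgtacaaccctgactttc
Abcc2: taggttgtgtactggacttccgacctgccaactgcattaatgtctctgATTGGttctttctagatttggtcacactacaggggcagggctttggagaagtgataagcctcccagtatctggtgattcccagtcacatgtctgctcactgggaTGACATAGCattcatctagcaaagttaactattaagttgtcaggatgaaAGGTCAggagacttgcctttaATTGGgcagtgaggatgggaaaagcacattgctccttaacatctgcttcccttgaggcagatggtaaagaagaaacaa
Abcb1a: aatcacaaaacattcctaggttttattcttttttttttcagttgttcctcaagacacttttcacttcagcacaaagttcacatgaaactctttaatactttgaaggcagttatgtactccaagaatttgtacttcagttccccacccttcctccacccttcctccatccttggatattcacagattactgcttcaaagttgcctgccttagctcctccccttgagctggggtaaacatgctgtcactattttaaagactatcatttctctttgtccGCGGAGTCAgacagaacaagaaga
Abca1: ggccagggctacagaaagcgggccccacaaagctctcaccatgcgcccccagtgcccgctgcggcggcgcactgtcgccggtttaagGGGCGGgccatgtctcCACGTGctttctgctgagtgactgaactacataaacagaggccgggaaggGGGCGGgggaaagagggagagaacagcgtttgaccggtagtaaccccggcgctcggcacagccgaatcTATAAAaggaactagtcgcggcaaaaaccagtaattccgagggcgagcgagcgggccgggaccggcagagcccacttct

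The AGGTCA hexamer stood at -56 to -51 in the Abcb11 window and at -49 to -44 in the Abcc2 window, counted from the first transcribed base as 1. It was found in 5 of 35 ABC windows (Abcb11, Abcb6, Abcc10, Abcc2 and Abcg2) and in 16.3% of 32851 windows of all genes. The Abcc2 window also held the antioxidant response core at -98 to -90, which was in 5 of 35 ABC windows and 12.4% of all. Abcb1a had that core at 27 to 35, after its start. Abca1 had an E-box at -147 to -142, a motif in 5 of 35 ABC windows and 7.15% of all, beside GC boxes at -163 to -158 and -97 to -92 and a TATA box at -29 to -24. The CCAAT, GC and TATA motifs were in 14, 18 and 6 of the 35 windows and in 37.4%, 35.7% and 13.6% of all. The paired hexamers IR1, DR4 and DR1, searched as exact repeats, were in 0 of the 35. The motifs do not overlap one another in the 4 windows printed.

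Several genes were read by more than 1 probe set, 26 of the 45, and a few of those disagreed. For Abca1 all 3 probe sets were lower in HF livers, by -0.44 to -0.75, and 2 of them were called over all probe sets. The 4 probe sets of Abcd2 differed by 0.13 to 1.42, all above 0, and the brightest alone was called, while their average differed by 0.78 (adjusted p = 0.025). Abcb1a had a second, dimmer probe set at 0.19 that was not called. The dimmer probe set of Abcd3 rose by 0.84 (adjusted p = 0.0070 over all probe sets), while its brighter one was at -0.00039. In Abcb8 the dimmer probe set rose by 0.31 (adjusted p = 0.039) against -0.12 for the brighter. All 6 probe sets of Abcf1 were above 0, from 0.12 to 0.28, and 1 was called. The cause of these disagreements was not tested.

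**Figure D3:**
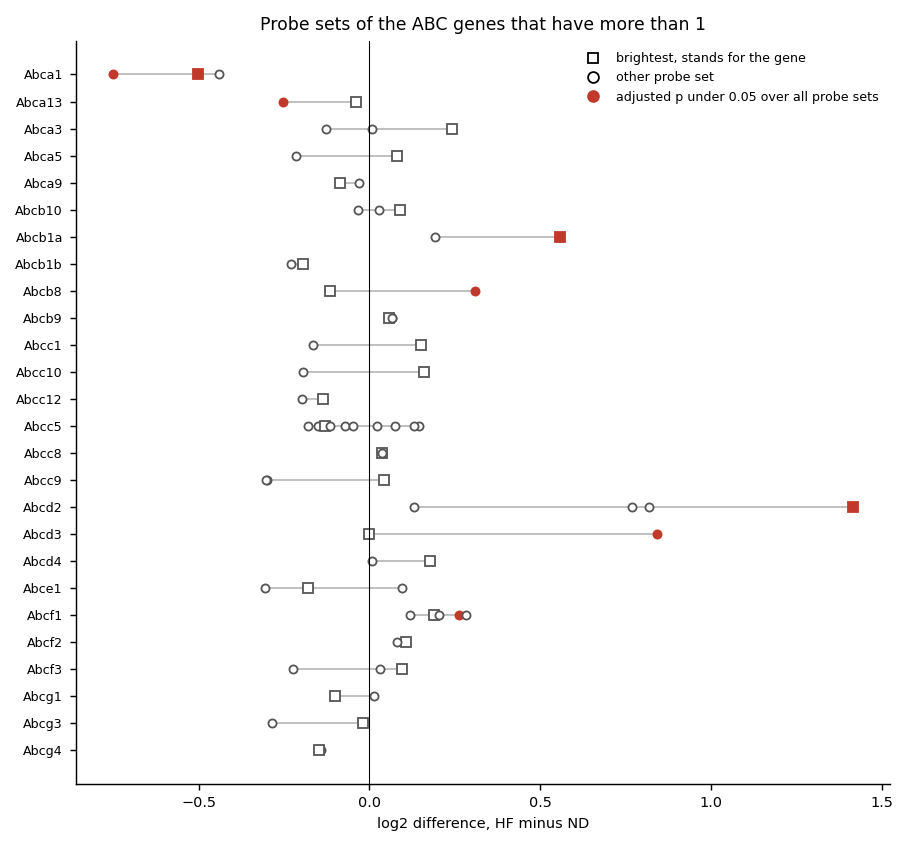
Log2 difference between HF and ND livers for every probe set of the 26 ABC genes with more than 1, with squares for the probe set that stands for the gene and red for an adjusted p under 0.05 over all probe sets. The squares and circles of Abcd2 and Abcd3 lie farthest apart.

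Leaving out each array in turn, Abcc3, Abcd2, Abcb1a, Abcc2, Abcc6 and Abca1 were called against ND every time. With the HF and ND groups fitted alone in limma, Abcc3, Abcd2 and Abcb1a of these were called. Abcc2, Abcc6 and Abca1 were not called in that fit (adjusted p = 0.059, 0.068 and 0.053). Abcb11 lost its call when any of ND mice 1 and 2 and HF mice 2 and 3 was dropped, Abca6 with any of ND mice 1 and 3 and HF mice 2 and 3, and Abcb6 with either of HF mice 2 and 3. A covariate fit on the 3' minus 5' value called none of the 45 genes in limma, where 9 had an unadjusted p under 0.05 and 14 of all 18193 genes were called. In that fit Abcc3 was at 1.34 (adjusted p = 0.067), Abcb1a at 0.59, Abcc2 at 0.50, Abcc6 at 0.38, Abcb11 at 0.35 and Abcd2 at 1.09 (adjusted p = 0.22). Abca1 went from -0.50 to -0.22 (adjusted p = 0.42), Abca6 from -0.77 to -0.40 and Abcb6 from 0.36 to 0.20. Among genes not called without the covariate, Abcc4, Abcb1b, Abcc5 and Abcg4 had an unadjusted p under 0.05 with it. Abcc4 went from 0.32 to 0.83 (adjusted p = 0.089), Abcb1b from -0.19 to -0.46, Abcc5 from -0.13 to -0.32 and Abcg4 from -0.15 to -0.27.

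**Figure D4:**
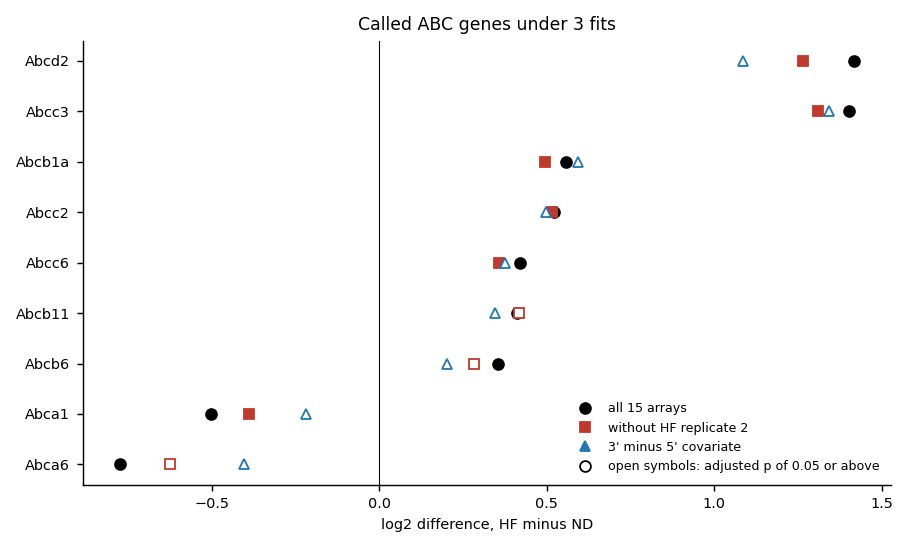
Log2 difference between HF and ND livers of the 9 called ABC genes from all 15 arrays, without HF replicate 2, and with the 3' minus 5' covariate. Open symbols had an adjusted p of 0.05 or above, as all 9 genes had with the covariate, and no gene changed sign.

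Against HF livers, the coffee groups had fewer called ABC genes. In the HFCC group none of the 45 was called in limma, with 9 at an unadjusted p under 0.05, beside 1.64% of all genes called. In the HFDC group 4 were called, beside 5.02%, of which Abca1 was higher (1.31% of all genes called higher) and Abca3, Abcb1a and Abcc6 were lower (3.7% called lower). In the HFGC group 2 were called, beside 3.09%, Abcb1a and Abcb6, both lower (2.31% called lower), and none was higher (0.781% called higher). Over the 3 coffee groups combined, 6 were called, beside 10.3% of all genes. Of these, Abca1 was higher, beside 3.39% called higher, and Abca3, Abcb1a, Abcb6, Abcc6 and Abcd2 were lower, beside 6.88% called lower. These comparisons share the HF mice with each other and with the comparison of HF with ND.

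The pump gene Abcb1a read 5.11, 5.33 and 5.15 in HFCC, 4.89, 5.14 and 5.05 in HFDC and 4.86, 5.06 and 5.18 in HFGC mice. All HFDC and HFGC mice lay below the lowest HF mouse, at 5.33, and HFCC replicate 2 was level with it. Abcb1a fell by 0.44 in HFDC (interval -0.65 to -0.23, adjusted p = 0.029) and by 0.43 in HFGC livers (adjusted p = 0.034), and differed by -0.27 in HFCC livers (adjusted p = 0.16). Its second, dimmer probe set differed by -0.14 in HFDC, 0.02 in HFGC and 0.24 in HFCC livers, none called. With both probe sets averaged the differences were -0.29 in HFDC (adjusted p = 0.13), -0.21 in HFGC (adjusted p = 0.31) and -0.17 over the 9 coffee mice (adjusted p = 0.25), so the calls of Abcb1a against HF rest on its brighter probe set. Abcc6 read 9.06, 9.15 and 9.02 in HFCC, 8.99, 9.19 and 9.02 in HFDC and 9.11, 9.12 and 9.22 in HFGC mice. It fell by 0.34 in HFDC livers (adjusted p = 0.045), and HF replicate 1, at 9.20, lay just below HFGC replicate 3. Abcb6 read 9.72, 9.76 and 9.71, then 9.78, 9.78 and 9.76, then 9.69, 9.76 and 9.58 in these groups. It fell by 0.35 in HFGC livers (adjusted p = 0.040), and all 9 coffee mice lay below all 3 HF mice.

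The efflux gene Abca1 read 11.42, 11.48 and 11.49 in HFCC, 11.38, 11.51 and 11.81 in HFDC and 11.33, 11.39 and 11.41 in HFGC mice. It rose by 0.41 in HFDC livers (interval 0.18 to 0.64, adjusted p = 0.042). The lowest HFGC mouse lay just below the highest HF mouse, and the HFCC and HFDC mice lay above all HF mice. In HFCC and HFGC livers the differences were 0.31 and 0.22, which were not called. Abca3 read 8.26, 8.47 and 8.55 in HF, 8.10, 8.50 and 8.03 in HFCC, from 7.85 to 8.02 in HFDC and 8.07, 7.97 and 7.99 in HFGC mice. HFCC replicate 2 stood among the HF mice, and the other coffee mice lay below them. Abca3 fell by 0.47 in HFDC livers (adjusted p = 0.034) and, over the 9 coffee mice, by 0.36 (adjusted p = 0.023). Its 2 dimmer probe sets differed by -0.13 and 0.03 over the same mice, neither called, and with the 3 averaged Abca3 was at -0.21 in HFDC livers (adjusted p = 0.10) and at -0.15 over the 9 mice (adjusted p = 0.12).

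Abcd2 read 7.05, 7.70 and 6.71 in HFCC, 7.30, 6.54 and 6.46 in HFDC and 6.71, 7.05 and 6.85 in HFGC mice. One HFCC mouse lay within the HF range and the rest lay below it. The fall of 0.74 in the coffee groups together had an adjusted p of 0.046, and in the single groups the differences of -0.51, -0.90 and -0.80 were not called. With its 4 probe sets averaged, the difference over the 9 coffee mice was -0.37 (adjusted p = 0.20). Of the bile pumps, Abcb11 (-0.18), Abcc2 (-0.23), Abcb4 (-0.22), Abcg5 (-0.05) and Abcg8 (-0.27) were not called in the coffee groups together, nor were Abcg2 (0.13) and Abcb1b (0.08). Abcg2 differed by 0.34 in HFDC livers, with an interval of 0.03 to 0.65 and an adjusted p of 0.18. Abcb4 had an interval of -0.39 to -0.04 and an adjusted p of 0.11. Over the 9 coffee mice a dimmer probe set of Abcg3 rose by 0.50 (adjusted p = 0.011 over all probe sets), against 0.12 for its brighter one.

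**Figure D5:**
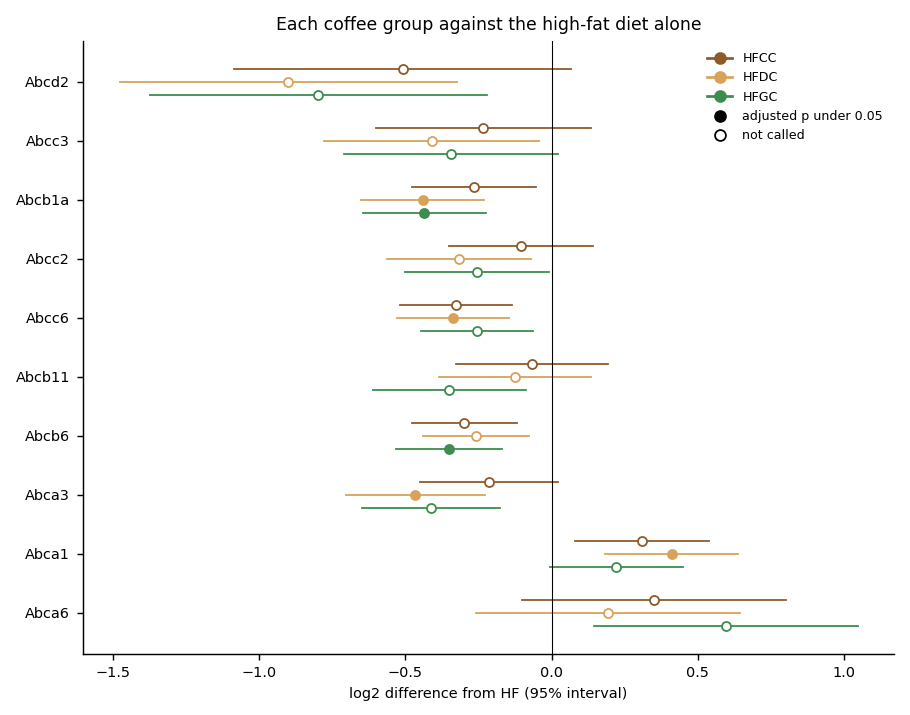
Log2 difference of each coffee group from the HF group, with the 95% interval from limma (3 mice per group), for the 10 ABC genes called in HF against ND or in a coffee group, alone or together, against HF. Filled points passed an adjusted p of 0.05. The points of Abca1 and Abca6 lie to the right of 0 and those of the other 8 genes to the left.

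All 6 calls of the coffee groups together, and all calls in HFDC and HFGC livers, were lost without HF replicate 2 and also without HF replicate 3. Over the 9 coffee mice, the differences without HF replicate 2 were -0.32 for Abcb1a, -0.34 for Abca3, -0.23 for Abcb6, -0.24 for Abcc6 and -0.58 for Abcd2, and that of Abca1 went from 0.31 to 0.20. Abcd2, called over the 9 coffee mice, lost that call when any of 11 arrays was dropped. With the 3' minus 5' covariate, 0 of 45 genes and 0 of all genes were called against HF in limma for each coffee group and for the 3 together. An unadjusted p under 0.05 was reached there by 2, 7, 3 and 6 of the 45 genes. In that fit, over the 9 coffee mice, Abca1 was at 0.05, Abcb6 at -0.16 and Abcd2 at -0.42. Abcb1a was at -0.41 (adjusted p = 0.41), Abca3 at -0.33 (adjusted p = 0.47) and Abcc6 at -0.26 (adjusted p = 0.47). Without the covariate these last genes were at -0.38, -0.36 and -0.31. Since the HF arrays lie apart from all others in the 3' minus 5' value, the fit cannot show which differences are free of it. When HF replicate 1 was dropped, 4 genes were called in HFCC livers (Abca1 higher, and Abcb6, Abcc6 and Abcd4 lower) and 6 in HFGC livers. The calls over all genes without HF replicate 1 are not given here, so these counts do not single out ABC genes. The endothelial marker Stab2 fell against HF by 0.39 in HFDC, by 0.40 in HFGC and by 0.36 over the 9 coffee mice. It was the only 1 of 5 such markers called each time, while 3 of the 5 lay above 0. The median differences of the 5 were 0.10, 0.09 and 0.14, and the part of Stab2 in these results was not tested.

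Against ND livers, a comparison that uses no HF array in its difference, 2 ABC genes differed in the coffee groups together, beside 4.09% of all genes called, and both were higher, beside 2.36%. Abcc3 stood at 10.60 ± 0.09 in HFCC, 10.42 ± 0.15 in HFDC and 10.49 ± 0.17 in HFGC livers, against 9.43 ± 0.46 in ND livers. Each of the 9 coffee mice lay above each ND mouse. The difference of 1.07 (interval 0.77 to 1.37, adjusted p = 0.0010) was called in every alternative, the 3' minus 5' covariate included (1.07, adjusted p = 0.0019). The difference of Abcc3 from the HF group over the same 9 mice, -0.33 (adjusted p = 0.15), was not called. Abca8b, of the A6-like cluster, read 7.44, 7.39 and 7.59 in ND mice and from 7.63 to 8.06 in the 9 coffee mice, a rise of 0.41 (adjusted p = 0.013) that was lost without ND replicate 1 (adjusted p = 0.060).

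Between the coffee groups no ABC gene was called in limma. In HFDC against HFCC livers 0 of 45 were called and 4 had an unadjusted p under 0.05, beside 0.0934% of all genes called. In HFGC against HFCC livers the counts were 0 and 2, beside 0% of all genes, and in HFGC against HFDC livers 0 and 2, beside 0.0385%. The largest difference among the members was 0.40, of Abcg2 in HFDC against HFCC livers and of Abca6 in HFGC against HFDC livers, with adjusted p of 0.48 and 0.80. A call in one coffee group and not in another is therefore not shown to be a difference between coffees.

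Of 14 measured nuclear receptors and factors known to regulate ABC genes, 5 rose in HF livers and none fell, beside 8.92% of all genes called higher and 4.63% lower. They were the fatty acid receptors Ppara (0.92, adjusted p = 0.0016) and Pparg (0.88), the xenobiotic receptors Nr1i3 (0.57) and Nr1i2 (0.39), and Nr5a2 (0.47), a regulator of bile acid synthesis. The bile acid receptor Nr1h4 (-0.10), the sterol receptor Nr1h3 (0.05) and Nr0b2 (0.78, adjusted p = 0.37) were not called. Against HF, 2 of the 14 fell in each coffee group and none rose, beside 1.26%, 3.7% and 2.31% of all genes called lower in HFCC, HFDC and HFGC livers: Ppara and Nr5a2 in HFCC and HFGC livers, and Ppara and Nr1i3 in HFDC livers. Against ND, the coffee groups together kept 1 of the 14 higher, Pparg (0.58). These calls against HF rest on the same HF arrays as those of the ABC genes: without HF replicate 2, 2, 5 and 2 of all 18193 genes were called in HFCC, HFDC and HFGC livers.

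Of 15 measured other carriers of bile acids, sterols and drugs, 3 rose in HF livers, beside the same 8.92% of all genes, the cholesterol-binding Npc2 (0.48), the cation exporter Slc47a1 (0.43) and the lipoprotein receptor Scarb1 (0.32). Another 2 fell, beside 4.63%, the organic anion uptake carrier Slco1a1 (-0.73) and the canalicular flippase Atp8b1 (-0.58). Slc10a1, the main sodium-coupled bile acid uptake carrier, differed by -0.20 and was not called. Against HF, Slco1a1 rose (0.85) and Npc2 fell (-0.46) in HFDC livers, beside 1.31% of all genes called higher and 3.7% lower. Scarb1 fell in HFGC livers (-0.47), beside 2.31% called lower. None of the 15 was called in HFCC livers in limma, with 3 at an unadjusted p under 0.05, beside 1.64% of all genes called. These comparisons use the same HF arrays as those of the regulators above.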

How the data were processed

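Total liver RNA of 15 mice was labelled with biotin and hybridised to 1 array each. The authors deposited linear-scale intensities computed by RMA (background correction, normalization between arrays and summary per probe set). Of software and version, the sources used here give none. The study selected its 3 mice per group at random. Log2 was taken here, with no further normalization. Groups came from the sample labels, and 0 columns were left unmapped.

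Of 45101 probe sets, 64 were controls, 34945 had 1 gene symbol in the platform annotation and 932 had several, and the rest are unnamed here. The brightest probe set, not ending in _x_at where another existed, stood for each of 18193 genes. R 4.3.3 with limma 3.58.1 fitted 5 group means (10 residual degrees of freedom) with Benjamini-Hochberg adjustment over all genes, and a fit over all probe sets where stated. The procedure was checked on simulated data. Precision is limited by the number of arrays. The p-values of limma set each difference against a spread between mice that is shared by the 5 groups and moderated over genes.

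The members, the lists (regulators, other carriers, roles and cell markers) and the tests were chosen with earlier results of these data known. Named were members called, members of the bile, drug, sterol, peroxisomal, mitochondrial, A6-like, E and F lists, and of each other list up to 4 called and 3 not called. Nr1i2 and Scarb1 in HF against ND, other probe sets, Abcg3, Abcg4 and Abcd4 were named after their values were seen. Alternatives were probe sets averaged, every probe set tested, cyclic loess, an offset of 32, genes at or above the median level, a replicate block, eBayes with trend and robust, the compared groups alone, the 3' minus 5' covariate and leaving out each array. Motif letters were searched on both strands.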

Additional observations from a re-analysis of the deposited data

How the results depend on the processing

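Over every probe set, a gene counts here if any of its probe sets was called. The count of ABC genes called in HF against ND, 9, was 13 over every probe set, 3 with the compared groups alone and 0 with the 3' minus 5' covariate. Those fits called 4635 of 45037 probe sets and, with the covariate, 14 of 18193 genes. Shares of all genes under the other alternatives are not given here, so their counts do not single out ABC genes. For HFCC against HF, 0 became 2 over genes at or above the median level. For HFDC against HF, 4 became 1 with probe sets averaged per gene, 2 with cyclic loess, 0 with the compared groups alone and 0 with the covariate. For HFGC against HF, 2 became 5 over every probe set (1162 of 45037 probe sets called). It became 1 with cyclic loess, 0 with the compared groups alone and 0 with the covariate. For the coffee groups together against HF, 6 became 9 over every probe set (3262 of 45037 probe sets called) and 0 with the covariate. The covariate fit called 0 of all genes in each comparison of coffee with HF. Leaving out 1 array gave 0 to 4 calls for HFCC, 0 to 6 for HFDC, 0 to 6 for HFGC and 0 to 7 for the coffee groups together against HF, 6 to 10 for HF against ND, and 1 to 4 for the coffee groups together against ND, with 4 without ND replicate 2. The comparisons between coffees had 0 calls in every alternative. Averaging its probe sets put Abcd3 at 0.42 (adjusted p = 0.017) in HF against ND, from -0.00039. In HFGC against HF it put Abcd3 at -0.43 (adjusted p = 0.044), from -0.16, and Abcf1 at -0.20 (adjusted p = 0.048), from -0.0045. Over the coffee groups together against HF, Abcf1 averaged was at -0.18 (adjusted p = 0.018), from -0.07. Of 23 calls of a gene in a comparison, 22 were lost in some alternative and only Abcc3 in the coffee groups together against ND was not. Of the 382 other pairs of gene and comparison, 26 were called in some alternative.

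With the replicate block, 9 ABC genes were called in HF against ND and 5 in HFDC against HF. Same-numbered arrays of different groups correlated at -0.28 to 0.23 (median 0.06) in their deviations from group means, and other arrays at -0.22 to 0.31 (median -0.03). These ranges overlap and cannot settle whether the numbers pair the mice, which the main fit took as unpaired.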
